A study of Mus musculus with 6 samples.

Results

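The 10 genes described here belong to the cellular response to low oxygen: Hif1a, Egln1, Egln3, Vegfa, Ddit4, Bnip3, Ankrd37, Slc2a1, Pdk1 and Car9. They were found by symbol in the deposited count table, as 10 of its 24516 rows, and all 10 were among the 13427 genes with enough counts to test. The symbols were chosen with fold changes of these same libraries already known, so the members' differences are a description of these libraries and not independent evidence that a hypoxia response moved. The RNA came from 1 line of mouse embryonic fibroblasts that carries a doxycycline-switched set of the cardiac transcription factors Mef2c, Gata4 and Tbx5 and an eGFP reporter named for Myh6, the cardiac alpha-myosin heavy chain gene. All 3 groups carried these alleles and received doxycycline at 1 ug/mL; they differed in the siRNA given on the day before. siControl is the control siRNA, siJunb is directed at Junb, an AP-1 transcription factor subunit, and siH1f0 at H1f0, the gene of linker histone H1.0. Each group has 2 libraries, numbered 1 and 2 and called biological replicates in the labels; nothing says how the cultures were separated, so the p-values measure only the spread between these libraries. Harvest is given as day 1 in the sample labels and as day 3, after sorting GFP-positive cells, in the series text. No group was a low-oxygen treatment, and the oxygen level of the cultures is not given in the sources used here.

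Cells sense oxygen through the hypoxia-inducible factors (HIFs). The HIF alpha subunits are made continuously, but when oxygen is present prolyl hydroxylases of the Egln family mark them, the von Hippel-Lindau ubiquitin ligase recognises the mark and the protein is destroyed. When oxygen falls, the alpha subunit escapes, pairs with Arnt and switches on genes for glycolysis, glucose uptake, blood vessel growth, mitophagy and pH control. The level of Hif1a mRNA is therefore no measure of HIF activity, which is usually read from its target genes; Egln3 is itself such a target and feeds back on the pathway.

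HIF binds a short core, ACGTG, with GCGTG as its other usual form. The promoter windows of the members (RefSeq, GRCm38.p6, 250 bases before to 50 after each annotated start) were searched on both strands for ACGTG and GCGTG, and for the AP-1 site TGANTCA. Windows are shown for the 3 members called below, and for Egln1 and Bnip3, which hold the same core and passed no test. Capitals mark the core, and each window is given 5′ to 3′ on the strand of its gene:
Egln3, chr12:54204087-54204115, minus strand: tgtgcatctcagACGTGagatccaggttt
Vegfa, chr17:46025358-46025386, minus strand: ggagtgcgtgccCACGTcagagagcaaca
Ddit4, chr10:59951941-59951969, minus strand: agaacgttgcgaACGTGcgcccggtgcct
Egln1, chr8:124949306-124949334, minus strand: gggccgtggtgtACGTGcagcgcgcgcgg
Bnip3, chr7:138909597-138909625, minus strand: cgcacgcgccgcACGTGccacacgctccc

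The Vegfa window reads CACGT because its core lies on the opposite strand, upstream of an annotated start inside the gene. ACGTG was present in 9 of the 10 members (all but Pdk1), GCGTG in 7, and TGANTCA in 1, Car9. A gene counted if any of its windows held the motif. The windows with ACGTG in Vegfa, Hif1a and Ankrd37 lie wholly inside the gene spans given below, not at the outermost starts. Among 10214 tested genes with a window the shares were 28.9%, 55.8% and 6.30%, and among all 32851 windows 19.6%, 32.4% and 7.81%. A match is a description of the letters in these windows, not a measured binding site.

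The libraries held 48690447 to 85979630 counts, and the median tested gene had 1484 to 2682 counts. Junb fell in siJunb, from 39.1 and 35.7 CPM in siControl to 10.7 and 8.89 CPM, and H1f0 fell in siH1f0, from 798 and 742 to 51.6 and 54.4 CPM. CPM here are counts scaled to the library total after TMM adjustment. In the induced factors siControl 1 lay below all other libraries. Mef2c stood at 354 CPM in siControl 1, 709 CPM in siControl 2 and 714 to 792 CPM in the knockdown libraries. Gata4 stood at 844, 1411 and 1343 to 1480 CPM in the same order, and Tbx5 at 1858, 2554 and 2389 to 2620 CPM. Their part in the members' differences from siControl was not tested. By chi-square per degree of freedom the siControl pair differed more (74.6) than those of siJunb (3.80) and siH1f0 (3.85). The SD of the log2 ratio between replicates was similar, at 0.312, 0.317 and 0.284 in siControl, siJunb and siH1f0. Among the cell type lists, 6 of 7 fibroblast markers reached 1 CPM, but Thy1 was at most 0.0115 CPM. Of 7 cardiomyocyte markers 4 reached 1 CPM, while 0 of 6 endothelial and 0 of 5 epithelial markers did, with Cldn5, Krt8, Krt18 and, among 6 leukocyte markers (2 at 1 CPM), Ptprc and Tyrobp at 0 counts. The summed smooth muscle markers (2 of 5 at 1 CPM, mostly Acta2, with Rgs5 at 0) ran from 61.7 to 66.8 CPM in siControl, 79.0 to 81.4 CPM in siJunb and 114 to 117 CPM in siH1f0.

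Per unit of transcript length, the members spanned nearly 2 orders of magnitude in siControl. Vegfa (170.1 ± 8.18 TPM, SD, n = 2) and Hif1a (161 ± 15.4 TPM) were highest, and their libraries overlapped. Egln1 followed at 76.8 TPM, Bnip3 at 39.6, Slc2a1 at 30.1, Ddit4 at 17.8, Egln3 at 11.6, Pdk1 at 7.26, Ankrd37 at 4.83 and Car9 at 2.03 TPM, and no libraries of neighbours in this order overlapped. The alpha subunit and the vascular growth factor thus stood well above the pH regulator Car9. In siJunb, Hif1a (146 TPM) stood above Vegfa (131 TPM) with no overlap and the remaining order was that of siControl. In siH1f0, Egln3 (4.01 ± 0.286 TPM) dropped below Pdk1 (8.19 TPM) and overlapped Ankrd37 (3.62 ± 0.859 TPM).

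**Figure D1:**
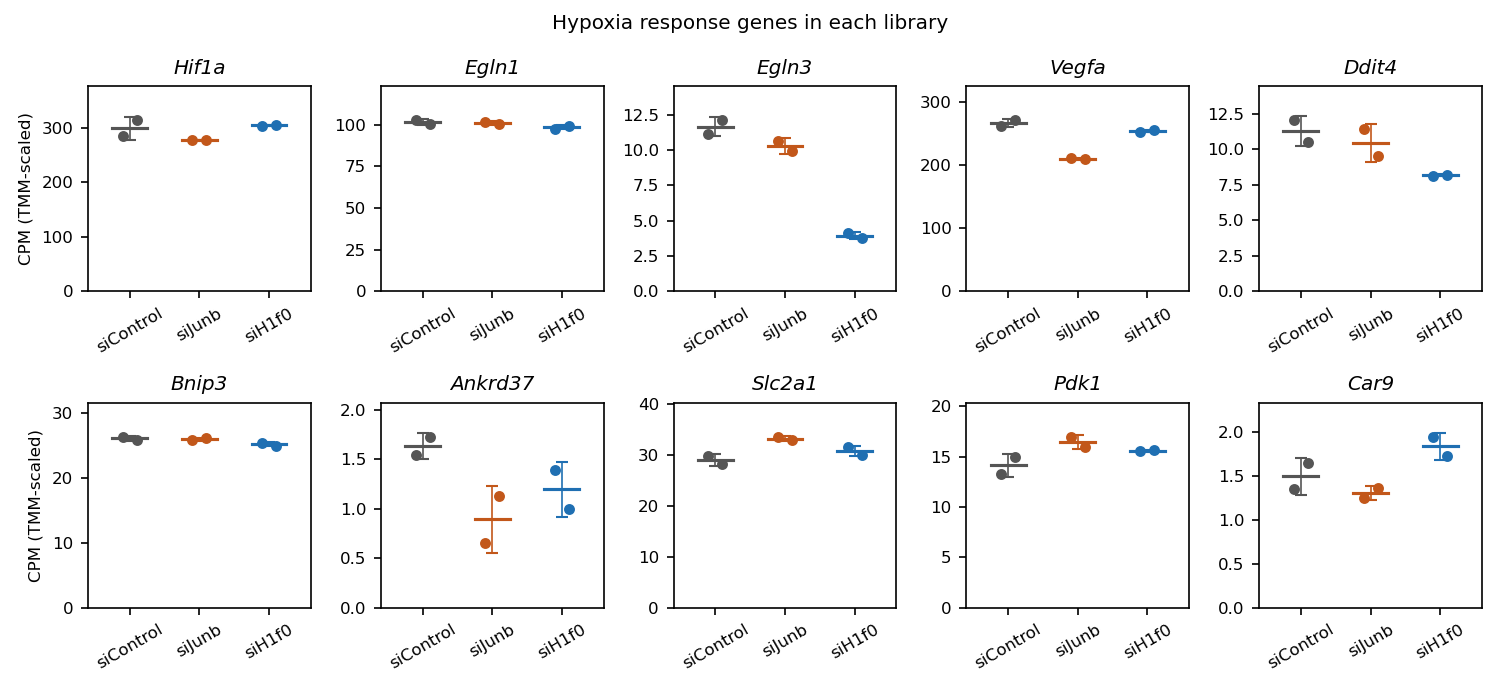
TMM-scaled CPM of the 10 hypoxia response genes in each of the 6 libraries (points), with the group mean (bar) and SD (whiskers, n = 2); every axis starts at 0. Egln3 stands at 3.76 to 4.12 CPM in siH1f0 against 9.90 CPM or more elsewhere, Vegfa is low in both siJunb libraries, and Egln1 and Bnip3 are nearly level.

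Hif1a encodes the oxygen-labile alpha subunit. It was at 285 and 314 CPM (siControl), 278 and 278 CPM (siJunb) and 303 and 306 CPM (siH1f0). Both siJunb libraries lay below all others, and the siH1f0 libraries lay between those of siControl. The log2 difference from siControl was -0.11 in siJunb (95% interval -0.23 to 0.02, edgeR adjusted p = 0.214) and 0.02 in siH1f0 (-0.10 to 0.15, adjusted p = 0.828). Between siH1f0 and siJunb it was 0.13 (0.01 to 0.26, adjusted p = 0.11). These readings depended on the siControl libraries: without siControl 1 the siJunb difference was -0.18 (adjusted p = 1.39e-05), and without siControl 2 the siH1f0 difference was 0.09 (adjusted p = 0.0185). The siH1f0 to siJunb difference passed with total counts only (0.18, adjusted p = 0.0301), with only the 4 libraries compared and without either siControl library. Hif1a (gene 15251) lies on chromosome 12 from 73901324 to 73947554 in GRCm38.p6.

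Egln1 encodes PHD2, the main oxygen-sensing hydroxylase of HIF alpha. Its libraries ran from 97.8 to 103 CPM, the narrowest spread of the 10 genes (SD of log2 CPM over the 6 libraries 0.0255). Its log2 differences were -0.01 for siJunb against siControl (95% interval -0.11 to 0.10, adjusted p = 0.939) and -0.04 for siH1f0 against siControl (-0.15 to 0.06, adjusted p = 0.636). Neither interval reaches the size of the Egln3 change given next. Egln1 (gene 112405) is on chromosome 8 from 124908587 to 124949254.

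Egln3 encodes PHD3, a hydroxylase of the same family whose gene is itself switched on by HIF. It showed the largest difference of the 10 genes. Egln3 was at 11.2 and 12.1 CPM (siControl), 10.7 and 9.90 CPM (siJunb) and 4.12 and 3.76 CPM (siH1f0), from 971, 798, 667, 473, 248 and 251 counts. Both siH1f0 libraries lay far below the other 4, which themselves spanned 9.90 to 12.1 CPM. In siH1f0 it fell by 66.2%, from 11.6 ± 0.674 to 3.94 ± 0.257 CPM (SD, n = 2 each), which is -1.56 ± 0.10 (SE) on the log2 scale with an edgeR adjusted p of 0.000107. That change ranked 79 by size among the 13427 genes tested. Against siJunb the log2 change in siH1f0 was -1.39 ± 0.10 (adjusted p = 6.14e-05). The siJunb difference from siControl was -0.18 (95% interval -0.39 to 0.04, adjusted p = 0.24), with both siJunb libraries below both of siControl. In the 14 alternative settings the siH1f0 change ran from -1.63 to -1.50 with an adjusted p of at most 0.00371. In bulk RNA, fewer cells of a type and less RNA per cell cannot be told apart. The higher Acta2-led smooth muscle sum in siH1f0 accompanies this fall, and its part in the result was not tested. Egln3 (gene 112407) is on chromosome 12 from 54178981 to 54203874.

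**Figure D2:**
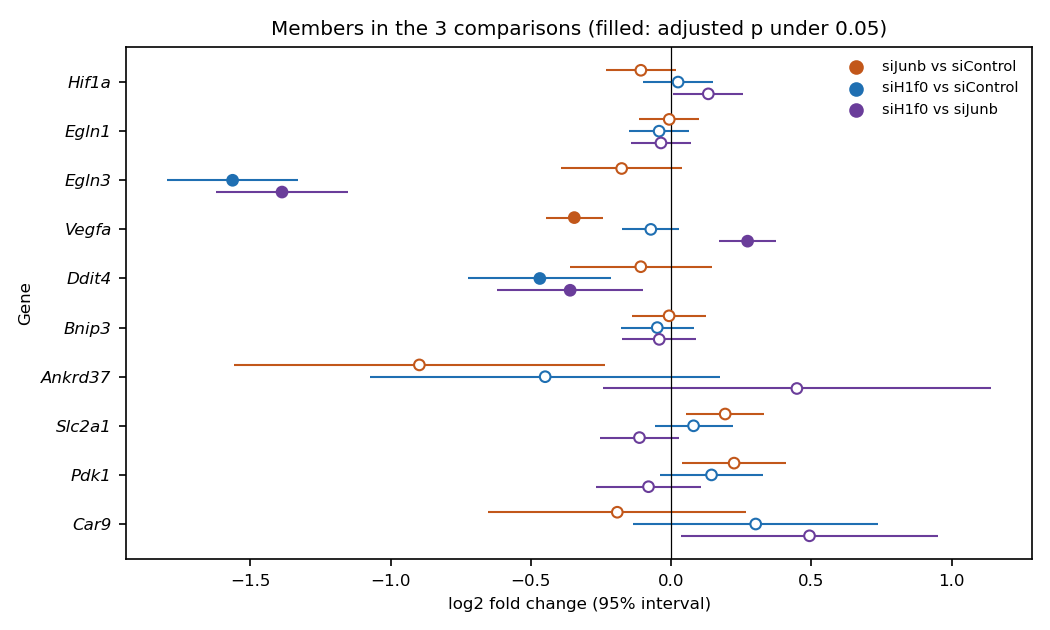
Log2 fold change of each member in the 3 comparisons with its 95% interval; filled points have an edgeR adjusted p under 0.05, and the comparisons share groups. The filled points are Egln3 and Ddit4 for siH1f0 against siControl and against siJunb, and Vegfa for siJunb against siControl and siH1f0 against siJunb.

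Vegfa encodes the growth factor that HIF induces to recruit blood vessels. It was at 262 and 271 CPM (siControl), 211 and 209 CPM (siJunb) and 252 and 255 CPM (siH1f0). Both siJunb libraries lay below the other 4, and both siH1f0 libraries lay just under siControl. In siJunb Vegfa fell by 21.3%, from 266 ± 5.98 to 209.8 ± 1.24 CPM (SD, n = 2 each), which is -0.34 ± 0.04 (SE) on the log2 scale with an edgeR adjusted p of 0.00203. In siH1f0 it was 0.27 ± 0.04 higher than in siJunb (adjusted p = 0.0028) and differed from siControl by -0.07 (95% interval -0.17 to 0.03, adjusted p = 0.377). Without siJunb 2 both calls were lost, at adjusted p = 0.0545 and 0.0553; without siControl 1 the siH1f0 difference from siControl passed (-0.09, adjusted p = 0.0325). No endothelial marker reached 1 CPM in any group. Of 5 tested cardiomyocyte markers, 4 were below siControl in siJunb (1 called lower, 3 at an unadjusted p under 0.05, median log2 difference -0.81), and 3 were called higher in siH1f0 than in siJunb (median 0.85). The summed level of all 7 was 110 to 124 CPM (siControl), 112 to 113 CPM (siJunb) and 124 to 132 CPM (siH1f0). Of 6 tested fibroblast markers 2 were called higher in siJunb, while in siH1f0 against siJunb 1 was higher and 3 lower. The sum of the 7 listed fibroblast markers was 2086 to 2120 CPM (siControl), 2007 to 2036 CPM (siJunb) and 2072 to 2158 CPM (siH1f0). The part of either cell type in the Vegfa difference was not tested. Vegfa (gene 22339) is on chromosome 17 from 46016993 to 46032377.

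Ddit4 encodes REDD1, a stress-induced inhibitor of the growth kinase complex mTORC1. It was at 12.1 and 10.5 CPM (siControl), 11.4 and 9.52 CPM (siJunb) and 8.14 and 8.23 CPM (siH1f0). The siH1f0 libraries were the lowest, whereas those of siControl and siJunb overlapped and each spread over more than 1 CPM. In siH1f0 Ddit4 fell by 27.7% against siControl, from 11.3 ± 1.08 to 8.19 ± 0.0635 CPM (SD, n = 2 each), which is -0.47 ± 0.11 (SE) on the log2 scale with an edgeR adjusted p of 0.0438, and by 0.36 on the log2 scale against siJunb (adjusted p = 0.0483). The siJunb difference from siControl was -0.11 (95% interval -0.36 to 0.15, adjusted p = 0.545). Both siH1f0 calls stood close to the threshold: the first held in 9 of 14 alternatives and the second in 7. Without either siH1f0 library the first had adjusted p = 0.288 and 0.248, without either siJunb library 0.0663 and 0.0656, and with only the 4 libraries compared 0.0707. Without siJunb 1 the second was -0.22 (adjusted p = 0.337), and leaving out siJunb 2 (0.0531) or either siH1f0 library (0.208 and 0.188) also ended it. It missed the threshold with total counts only (0.0812), a mean of at least 5 CPM (0.0555) and limma-voom (0.0606) as well. Ddit4 (gene 74747) is on chromosome 10 from 59949675 to 59951770.

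**Figure D3:**
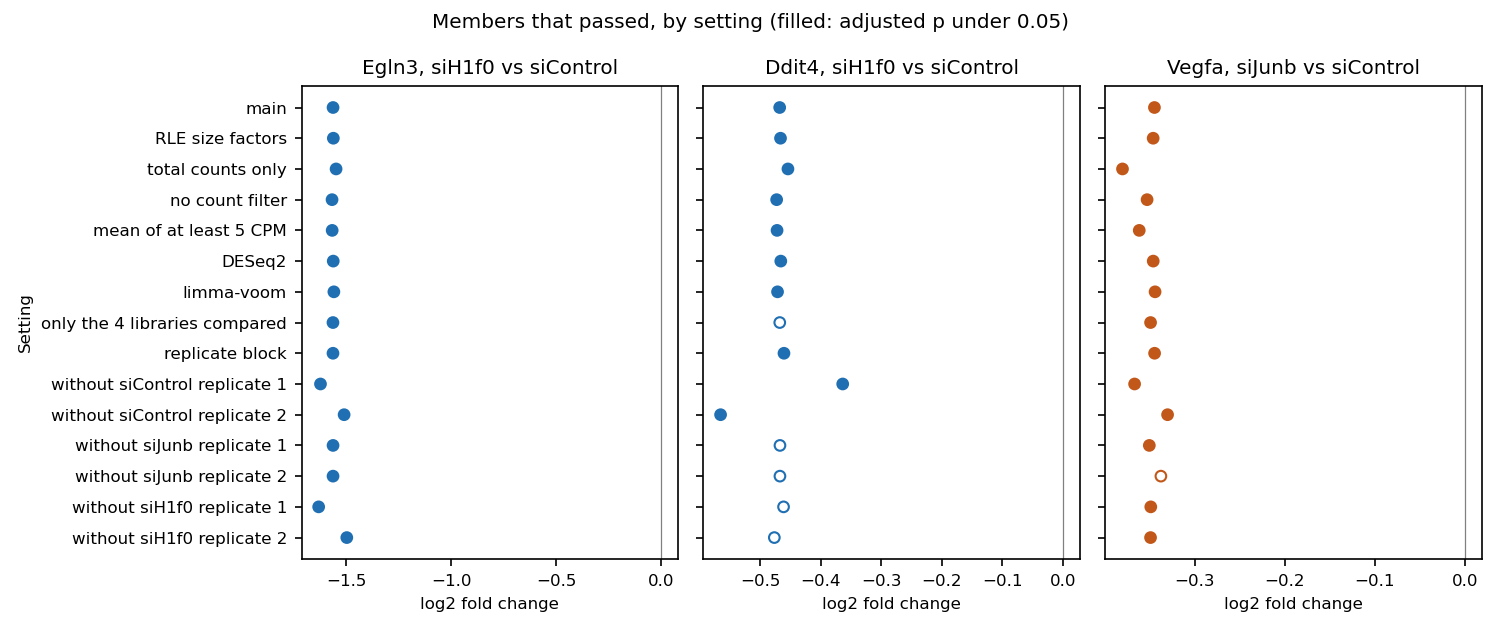
Log2 fold change of Egln3 and Ddit4 in siH1f0 and of Vegfa in siJunb, each against siControl, under the reported settings (main) and 14 alternatives; filled points have an adjusted p under 0.05. Egln3 is filled in every setting, Vegfa in all but the one without siJunb replicate 2, and Ddit4 is open in 5.

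Bnip3 encodes a mitochondrial receptor that marks mitochondria for removal in hypoxia. It ran from 24.99 to 26.4 CPM over the 6 libraries. Its log2 difference from siControl was -0.01 in siJunb (95% interval -0.14 to 0.12, adjusted p = 0.946) and -0.05 in siH1f0 (-0.18 to 0.08, adjusted p = 0.657). The gene (12176) lies on chromosome 7 from 138890836 to 138909506. Ankrd37, an ankyrin repeat gene known as a HIF target, was at 1.54 and 1.73 CPM (siControl), 0.655 and 1.13 CPM (siJunb) and 1.40 and 1.00 CPM (siH1f0). Both siControl libraries were above the other 4. These values rest on 134, 114, 41, 54, 84 and 67 counts, and the siJunb difference of -0.90 ± 0.29 (SE; 95% interval -1.56 to -0.24) did not pass (adjusted p = 0.069). With no count filter it passed (0.00191), and so it did when siControl 1 (0.0138) or siControl 2 (0.0335) was left out. The siH1f0 difference from siControl was -0.45 (-1.07 to 0.17, adjusted p = 0.375). The gene (654824) lies on chromosome 8 from 45996908 to 46000414.

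Slc2a1, Pdk1 and Car9 serve metabolism and pH. Slc2a1 encodes the glucose transporter GLUT1, and was at 29.9 and 28.2 CPM (siControl), 33.6 and 32.8 CPM (siJunb) and 31.5 and 29.99 CPM (siH1f0). Pdk1 encodes a kinase that limits the oxidation of pyruvate in mitochondria, and was at 13.3 and 14.9 CPM, 17.0 and 15.9 CPM, and 15.5 and 15.6 CPM in the same order. For both genes each knockdown library lay above both siControl libraries. The siJunb differences, 0.19 for Slc2a1 (95% interval 0.05 to 0.33, adjusted p = 0.0646) and 0.22 for Pdk1 (0.04 to 0.41, adjusted p = 0.0966), did not pass the test. Slc2a1 passed without siControl 1 (0.24, adjusted p = 0.00346) and Pdk1 without siControl 2 (0.30, adjusted p = 0.00323). In siH1f0 the differences were 0.08 (-0.06 to 0.22, adjusted p = 0.481) and 0.14 (-0.04 to 0.33, adjusted p = 0.336), and that of Pdk1 passed without siControl 2 (0.22, adjusted p = 0.033). Leaving out siControl 1 or siControl 2 raised the number of genes called over the whole table from 2209 to 4605 or 5521 in siJunb, and from 879 to 2882 or 4932 in siH1f0. Slc2a1 (gene 20525) is on chromosome 4 from 119108745 to 119137330, and Pdk1 (gene 228026) on chromosome 2 from 71873215 to 71903858.

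Car9 encodes carbonic anhydrase IX, a cell-surface enzyme of pH control that is nearly silent in many cells with ample oxygen. It was at 1.34 and 1.64 CPM (siControl), 1.25 and 1.36 CPM (siJunb) and 1.94 and 1.72 CPM (siH1f0). Both siH1f0 libraries were the highest, and those of siControl and siJunb overlapped. The differences were 0.30 for siH1f0 against siControl (95% interval -0.13 to 0.74, adjusted p = 0.393), 0.49 against siJunb (0.04 to 0.95, adjusted p = 0.106), and -0.19 for siJunb against siControl (-0.65 to 0.27, adjusted p = 0.555). With 65 to 117 counts per library, no difference passed in any comparison or alternative that kept the gene. Car9 (gene 230099) is on chromosome 4 from 43507026 to 43513729.

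In the direct comparison of siH1f0 with siJunb, the log2 differences of the members not yet given were -0.04 for Egln1, -0.04 for Bnip3, 0.45 for Ankrd37, -0.11 for Slc2a1 and -0.08 for Pdk1, with adjusted p from 0.215 to 0.639. Counted over the 10 members, 0 were called higher and 1 (Vegfa) lower in siJunb against siControl, where 8.63% of all genes tested were called higher and 7.82% lower. In siH1f0 against siControl 0 were higher and 2 (Egln3 and Ddit4) lower, against 2.27% and 4.27% of all genes. In siH1f0 against siJunb 1 was higher (Vegfa) and 2 lower (Egln3 and Ddit4), against 12.2% and 13.8%. With total counts only as the scaling, 884 of 2253 calls in siJunb against siControl were higher, in place of 1159 of 2209, and 2222 of 3562 in siH1f0 against siJunb, in place of 1637 of 3484. The members' median log2 differences were -0.11, -0.05 and -0.04, against 0.002, 0.003 and 0.001 over all genes. At an unadjusted p under 0.05 there were 4, 2 and 5 members, beside 31.7%, 22.8% and 38.5% of all genes. DESeq2 called 1, 2 and 3 members and limma-voom 1, 2 and 2, with 0 of them higher against siControl. The comparisons share groups, and since the members were chosen with these values known nothing is read from the shares.

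Of 17 genes that sense oxygen or regulate HIF, 15 were tested. Epas1, which encodes HIF-2 alpha, and Hif3a were at no more than 0.0299 and 0.0449 CPM, leaving Hif1a as the alpha subunit gene with appreciable mRNA. In siJunb 2 were called higher and 2 lower. Hif1an, the asparagine hydroxylase that blocks HIF's coactivator contact, rose from 65.3 and 71.2 CPM to 96.6 and 96.7 CPM, a log2 change of 0.50 (edgeR adjusted p = 0.00152). Cited2, which competes for that coactivator, rose by 0.19 (adjusted p = 0.0423), whereas Vhl, the recognition subunit of the ligase, and Cul2, its scaffold, fell by 0.24 and 0.18 on the log2 scale (adjusted p = 0.0193 and 0.0472). In siH1f0 0 were higher (2 at an unadjusted p under 0.05) and 2 lower. Siah2, a ubiquitin ligase that targets the Egln hydroxylases, went from 43.3 and 41.5 CPM to 26.4 and 26.5 CPM, a log2 change of -0.68 (adjusted p = 0.000383), and Arnt, the partner of HIF alpha, fell by 0.36 on the log2 scale (adjusted p = 0.00889). The list's median was -0.01 in both comparisons. Over all genes tested the shares called higher and lower were 8.63% and 7.82% in siJunb and 2.27% and 4.27% in siH1f0. Between the knockdowns they were 12.2% and 13.8%. In siH1f0 against siJunb 2 were higher and 3 lower: Vhl (0.38) and Os9 (0.14) were higher and Hif1an (-0.52), Siah2 (-0.50) and Arnt (-0.35) lower (adjusted p at most 0.0458). Hif1an in siJunb and Siah2 in siH1f0 held in all 14 alternatives, whereas Arnt lost its call against siControl in 2, Vhl in 5, Cul2 in 6 and Cited2 in 8.

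Other HIF targets were held in 5 lists with 74 genes, of which 68 were tested. In siJunb 9 were called higher and 3 lower, with a median log2 difference of 0.07. In siH1f0 2 were higher and 9 lower (median -0.02), and in siH1f0 against siJunb 6 were higher and 21 lower (median -0.09). These counts moved with the libraries used: leaving out 1 library at a time gave 4 to 20 higher and 0 to 8 lower in siJunb, and 0 to 10 higher and 1 to 22 lower in siH1f0. Between the knockdowns it gave 4 to 10 higher and 8 to 32 lower. With total counts only, siH1f0 against siJunb gave 8 higher and 14 lower. Relative to the shares over all genes, 9 of 68 and 3 of 68 in siJunb stand beside 8.63% and 7.82%, and 2 of 68 and 9 of 68 in siH1f0 beside 2.27% and 4.27%. Between the knockdowns 6 of 68 and 21 of 68 stand beside 12.2% and 13.8%. The same shares over all genes stand beside the counts of the single lists below.

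**Figure D4:**
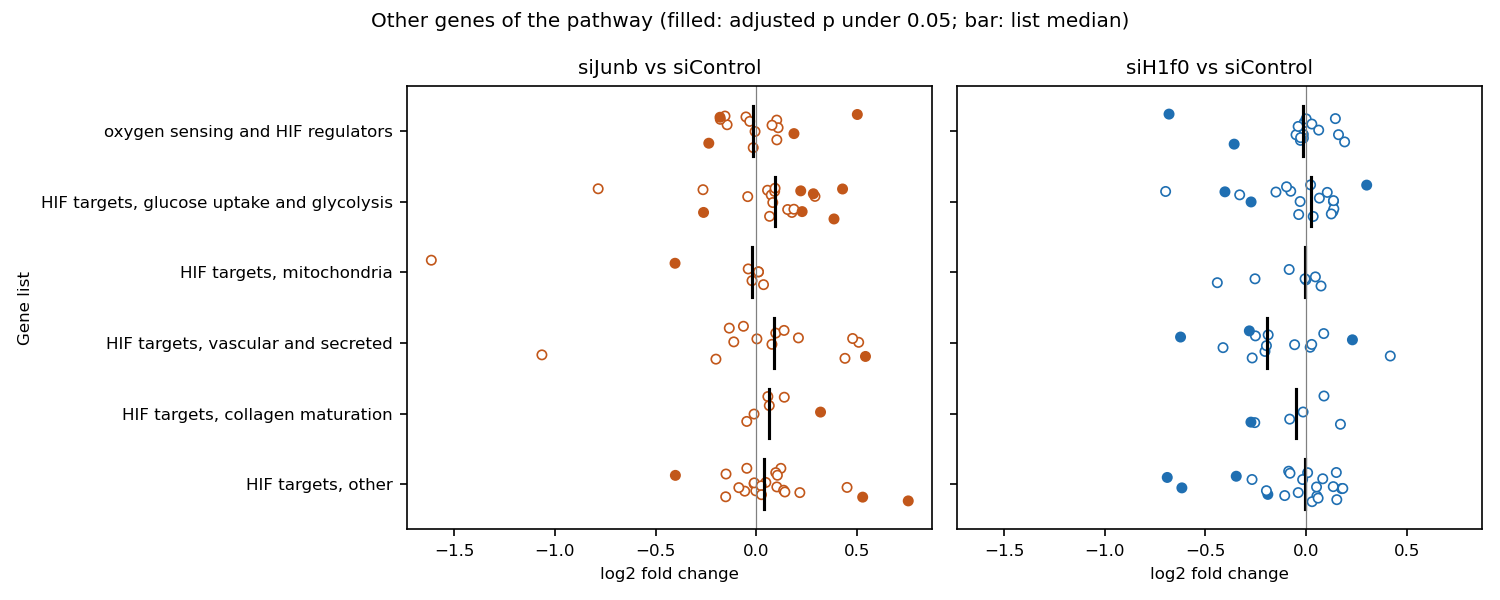
Log2 fold change of the tested genes of 6 pathway lists in siJunb (left) and siH1f0 (right) against siControl; each point is a gene, filled where the adjusted p was under 0.05, and the bar is the list median. The siJunb panel holds more filled points above 0 and the siH1f0 panel more below 0; the panels share the siControl libraries.

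Among 19 tested genes of glucose uptake and glycolysis, 5 were higher and 1 lower in siJunb. Aldoa, an aldolase, rose from 489.9 and 456 CPM to 638 and 636 CPM (log2 change 0.43, adjusted p = 0.00118). Pgam1, a phosphoglycerate mutase (0.39, adjusted p = 0.00306), and Ldha, the lactate dehydrogenase A chain (0.28, adjusted p = 0.00984), were the next by p. In siH1f0 1 was higher and 2 lower. Hk2, the hexokinase that HIF induces, fell from 71.7 and 74.0 CPM to 55.9 and 54.3 CPM (log2 change -0.40, adjusted p = 0.00348), and Tpi1 fell by 0.27 on the log2 scale (adjusted p = 0.0452). Ppp1r3c, a glycogen-targeting phosphatase subunit, rose by 0.30 (adjusted p = 0.0176). In siH1f0 against siJunb 2 were higher and 8 lower, with Aldoa (-0.46), Hk2 (-0.48) and Pfkl (0.37) first by p (adjusted p at most 0.00205). The list's medians were 0.09, 0.02 and -0.16 in the 3 comparisons. Aldoa in siJunb held in all 14 alternatives and Hk2 in siH1f0 in 12, while Ppp1r3c held in 9 and Tpi1 in 7. Gapdh and Eno1 have near-identical copies elsewhere in the genome that can split their reads, so their values are uncertain.

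Of 7 tested mitochondrial targets, Mxi1, a repressor that opposes Myc, fell in siJunb (-0.40, adjusted p = 0.00493). By edgeR 0 were called in siH1f0 against either group, with 1 at an unadjusted p under 0.05 in each. Among 14 tested vascular and secreted targets, in siH1f0 Pdgfb, a growth factor (-0.62, adjusted p = 0.0301), and Mif, a cytokine (-0.28, adjusted p = 0.0282), fell and the chemokine gene Cxcl12 rose (0.23, adjusted p = 0.0212). The list's median was 0.09 in siJunb and -0.19 in siH1f0. Against siJunb, siH1f0 had 1 higher and 6 lower, with Cxcl12 at 0.34 (adjusted p = 0.00101) and Mif at -0.36 (adjusted p = 0.00288). Of 6 collagen maturation genes, Lox, a collagen cross-linking oxidase, rose in siJunb (0.32, adjusted p = 0.0262) and Ero1l, an oxidase of disulfide formation, fell in siH1f0 (-0.27, adjusted p = 0.0384). In siH1f0 against siJunb both fell (-0.57 and -0.23, adjusted p = 0.00122 and 0.0293). Against siControl several of these calls rested on the setting: Lox lost its call in 5 of 14 alternatives, Ero1l and Cxcl12 in 6, Mif in 5, and Pdgfb in 5 of 13. Ero1l lost the call between the knockdowns in 5.

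In the remaining list, of 22 tested targets, 2 were higher and 1 lower in siJunb, 0 higher (5 at an unadjusted p under 0.05) and 4 lower in siH1f0, and 3 higher and 5 lower in siH1f0 against siJunb. Tfrc, the transferrin receptor that brings iron into cells, was at 91.4 and 107 CPM (siControl), 169 and 166 CPM (siJunb) and 65.6 and 63.8 CPM (siH1f0). Its log2 change was 0.76 in siJunb (adjusted p = 0.000512) and -0.62 in siH1f0 (adjusted p = 0.00216), and both calls held in all 14 alternatives. Plin2, a lipid droplet coat protein gene, rose by 0.53 in siJunb (adjusted p = 0.000715) and fell in siH1f0 (-0.35, adjusted p = 0.00832), the latter held in 12 alternatives. The direct comparison of siH1f0 with siJunb gave -1.37 for Tfrc (adjusted p = 1.21e-05), -0.88 for Plin2 (adjusted p = 2.52e-05) and -1.14 for Ak4, an adenylate kinase gene (adjusted p = 0.00119). Ccng2, a cyclin G gene, fell in siJunb (-0.40, adjusted p = 0.00461). Ak4 (-0.69, adjusted p = 0.0356) and Ndrg1 (-0.19, adjusted p = 0.0462) also fell in siH1f0, but Ak4 lost this call in 7 of 13 alternatives and Ndrg1 in 7 of 14.

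Of 20 tested paralogues and partners of the members, 1 was called higher and 1 lower in siJunb, beside 8.63% and 7.82% of all genes. In siH1f0 0 were higher (2 at an unadjusted p under 0.05) and 1 lower, beside 2.27% and 4.27%. Nrp2, a co-receptor for vascular growth factors, rose in siJunb (0.28, adjusted p = 0.0169) while Pdk2, a sister kinase of Pdk1, fell from 16.5 and 16.3 to 12.3 and 11.6 CPM (log2 change -0.45, adjusted p = 0.00493). Ddit4l, the paralogue of Ddit4, fell from 5.64 and 6.00 CPM to 3.34 and 4.07 CPM in siH1f0 (log2 change -0.65, adjusted p = 0.0249), and its call held in 8 of 13 alternatives. Egln2, the other hydroxylase of the family, differed from siControl by 0.10 in siJunb (adjusted p = 0.367) and -0.01 in siH1f0 (adjusted p = 0.933), unlike the fall of Egln3; the difference between the paralogues was not tested. In siH1f0 against siJunb 4 were higher and 1 lower: Pdk2 (0.58), Slc2a10 (0.51), Slc2a8 (0.39) and Nrp1 (0.33) were higher and Nrp2 (-0.45) lower (adjusted p at most 0.0179). The shares over all genes there were 12.2% and 13.8%.

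Ddit4 also answers to amino acid stress and glucocorticoids and acts on mTORC1, so those pathways were counted too. Over all genes tested the shares called higher and lower were 8.63% and 7.82% in siJunb and 2.27% and 4.27% in siH1f0. Between the knockdowns they were 12.2% and 13.8%. Of 11 mTORC1 control genes 2 were higher and 2 lower in siJunb: Sesn2 (0.31) and Txnip (0.23) rose and Sesn1 (-0.25) and Rptor (-0.21) fell (adjusted p at most 0.0315). In siH1f0 1 was higher, Txnip (0.30, adjusted p = 0.0111). Of 10 integrated stress response genes 2 were higher and 1 lower in siJunb, the last being Ddit3 (-0.36, adjusted p = 0.0149), and 1, Chac1, was higher in siH1f0 (0.24, adjusted p = 0.0314). Of 7 tested glucocorticoid response genes 1 was higher in each knockdown, Sgk1 in siJunb (0.31, adjusted p = 0.0057) and Errfi1 in siH1f0 (0.25, adjusted p = 0.0409). In siH1f0 against siJunb the 3 lists gave 2, 4 and 1 higher and 1, 1 and 0 lower. Rptor (0.38), Sesn1 (0.33), Ddit3 (0.36), Trib3 (0.20), Psat1 (0.22), Atf5 (0.34) and Errfi1 (0.27) were higher and Sesn2, which is in both of the first lists, lower (-0.26; adjusted p at most 0.0213). Several of these calls were lost in some alternatives: of 14 alternatives, Txnip lost its call in 5 in each knockdown, Rptor in siJunb in 6, and Chac1 and Errfi1 in siH1f0 in 6 each.

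Among 9748 genes with a mean of at least 5 CPM outside the lists, those with the pattern most like Egln3 by Pearson correlation of log2 CPM over the 6 libraries were Idh1 (r = 0.999), Ergic1 (0.997), Lasp1 (0.996), Snx6 (0.995) and Rap1gds1 (0.995). Rap1gds1, for example, was at 126 and 133 CPM (siControl), 116 and 124 CPM (siJunb) and 58.8 and 52.6 CPM (siH1f0). It fell most of these genes in siH1f0 against siControl (log2 difference -1.22). Idh1 (-0.30) and Lasp1 (-0.26) changed much less, since the correlation compares shape and not size. For Vegfa they were Galnt18 (0.999), Cenpm (0.997), Kifap3 (0.995), Pcyt1b (0.994) and Prkar1a (0.994), and for Ddit4 Pkdcc (0.986), Lypla2 (0.986), Micu2 (0.985), Limk2 (0.985) and Gtse1 (0.984). In siH1f0 against siControl Limk2 and Gtse1 were called lower. Pkdcc, Lypla2 and Micu2 were not called (edgeR adjusted p = 0.28, 0.103 and 0.282). Ankrd37 and Car9 were below that mean. Among the 7 other members compared, the closest was Ddit4 for Egln3 (0.891), Hif1a for Vegfa (0.797) and Egln1 for Ddit4 (0.921). Egln1 itself ran only from 97.8 to 103 CPM. The points, 6 in 3 pairs, share their libraries and mostly trace 3 group levels, so these values describe likeness only.

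An siRNA can also lower transcripts other than its target when bases near its 5′ end pair with their 3′ UTRs, so the 3′ UTRs of 12291 tested genes (GENCODE M21, GRCm38) were read. The 16131 heptamers held by at least 50 genes were ranked by how far their carriers' mean log2 difference lay below that of all genes. This distance was scaled by the square root of the number of carriers. For siH1f0 the first was GTGGACT, held by 1226 genes, of which 13.4% were called lower against 3.42% of the others. The second was GCGTCCT, held by 325 genes, with 17.5% called lower against 4.05%. Egln3 and Bnip3 hold the second and Egln1 and Vegfa the first, so of these 4 members 1 was called lower in siH1f0; Ddit4 holds neither. H1f0, the siRNA's own target, holds both and so is among the carriers of each. Of the other pathway genes called lower in siH1f0 against siControl, Siah2 holds the second, and Arnt, Pdgfb and Ak4 the first. Hk2, Tpi1, Mif, Tfrc, Plin2, Ero1l, Ndrg1 and Ddit4l hold neither. The sites of the second heptamer, in capitals, are shown to place it in the member that fell most and in 2 other genes, each on the minus strand and within 1 exon of the 3′ UTR:
Egln3, chr12:54180302-54180330: actttatgtatGCGTCCTgatttgaaggg
Bnip3, chr7:138891086-138891114: gcttaaatcggGCGTCCTcccagtcttct
Siah2, chr3:58675334-58675362: ggtgctttaagGCGTCCTctgctgacact

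Carriers of the second heptamer had a median log2 difference of -0.08, against 0.01 for other genes, and also longer 3′ UTRs (a median of 2390 bases against 1146). Carriers of the first likewise had longer 3′ UTRs (a median of 2344.5 bases against 1069). Of the 5 genes most like Egln3, Ergic1 and Rap1gds1 hold the second heptamer, and Snx6 and Rap1gds1 the first. Of the 5 most like Ddit4, Limk2 holds the second, and of the 5 most like Vegfa, Prkar1a holds the first. The like genes and the heptamers were picked from the same libraries, so nothing is read from this overlap. For siJunb the first heptamers by rank were GCGGAAC and AGCGGAA, and 0 of the 10 members hold either. Kifap3, among the genes most like Vegfa, holds both. The heptamers were picked from these same fold changes, so a lower median among carriers follows in part from the choice. The sources used here give no siRNA sequences, and any part of pairing in the fall of Egln3 was not tested.

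**Figure D5:**
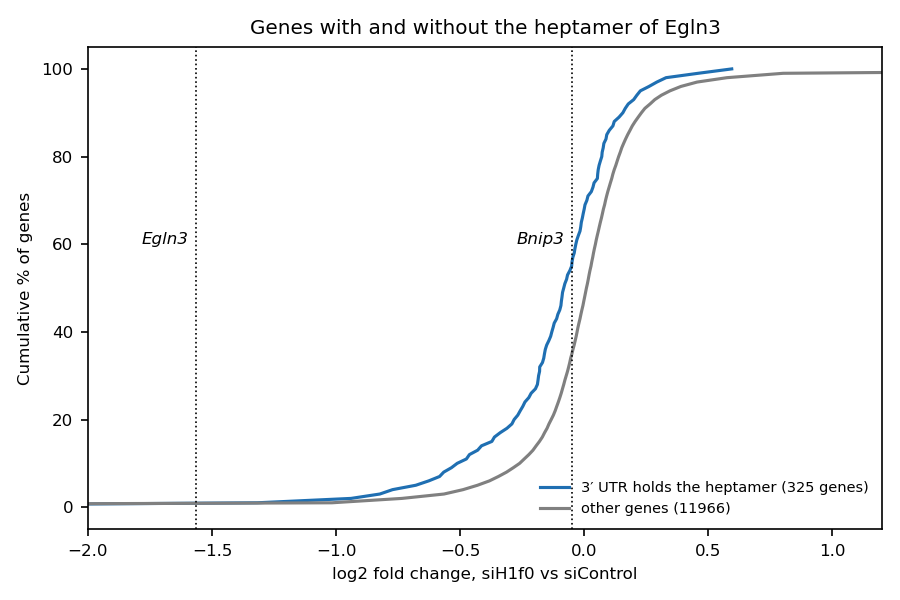
Cumulative share of genes by log2 fold change in siH1f0 against siControl, for 325 genes whose 3′ UTR holds the second-ranked heptamer (blue) and 11966 other genes (grey); dotted lines mark Egln3 and Bnip3, which both hold it. The blue curve lies to the left of the grey one over most of its range, with Egln3 at -1.56 and Bnip3 near the middle (-0.05). The target H1f0 (-3.86), also a carrier, lies left of the plotted range.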

How the data were processed

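Poly(A) RNA was sequenced in 6 libraries, 2 for each of siControl, siJunb and siH1f0. The authors deposited raw read counts per gene symbol; per the submitters' processing notes, HISAT2, Subread with featureCounts, and mm10 were used. Annotation release, strand setting and treatment of multiply matching reads: not given in the sources used here. The 10 members and all gene lists were chosen with earlier results of these data known. In R 4.3.3, edgeR 4.0.16 (TMM, filterByExpr, quasi-likelihood F test, all 6 libraries, 3 residual degrees of freedom) was fitted to the counts of 13427 genes; a call is a Benjamini-Hochberg adjusted p under 0.05 over all of them. CPM use TMM-scaled library totals, and TPM use the gene lengths in the deposited table. For single genes a two-sided exact permutation test of 2 against 2 libraries reaches p = 0.333 at best. By rule, every member is named, plus, per list and comparison, the 3 called genes with the smallest p or all where 5 or fewer were called. A gene that met this rule is not reported here. Coordinates come from RefSeq GRCm38.p6 (23591 of 24516 symbols matched). Alternatives changed the scaling (RLE factors, or total counts only), the filter (none, or at least 5 CPM on average), the tool (DESeq2 1.42.0, or voom in limma 3.58.1) and the design (only the 4 libraries compared, a replicate block, or 1 library left out). The fitting code was run on simulated counts with the same spread in all groups. The wider spread of the siControl pair, seen by chi-square, was not simulated.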

Additional observations from a re-analysis of the deposited data

How the results depend on the processing

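The number of members called, 1 in siJunb and 2 in siH1f0 against siControl and 3 between them, became 2 in siJunb with no count filter and 1 in siH1f0 with only the 4 libraries compared. Leaving out 1 library gave 0 to 4, 1 to 4 and 1 to 4; a lone library is then assumed to vary like the other groups. Over all alternatives and single members, 387 values kept their side of the threshold, 13 gained a call, 14 lost one and 0 called values changed sign. Over all genes 2209, 879 and 3484 were called; no count filter gave 3267, 1921 and 4290, only the 4 libraries compared 1094, 325 and 6416, and leaving out 1 library 352 to 5521, 116 to 4932 and 1304 to 6435. Deviations from the group mean were nearly uncorrelated between libraries with the same replicate number (0.05, -0.04 and 0.06). With 1 deviation per gene and group, this cannot tell whether the cultures were paired. With the replicate number as a block 1, 2 and 3 members were called, and 1684, 550 and 2919 genes. Alternatives for the pathway genes were added after seeing the data: their calls kept their side in 949 cases and were lost in 262. The 5 HIF target lists gave 14 higher and 6 lower in siJunb with no count filter and 6 and 2 with only the 4 libraries compared; in siH1f0 these were 2 and 16, and 0 and 3, and with the block 1 and 5; between the knockdowns the 4 libraries gave 11 and 32. The cause of these shifts was not tested. Ankrd37 and Car9, at 41 to 134 counts per library, are limited by depth and fall below a mean of 5 CPM.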
